A study of Mus musculus with 6 samples.

Results

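Expression of 6 genes of the chemokine system, the ligand genes *Cxcl1*, *Cxcl2*, *Ccl4*, *Cxcl13* and *Ccl25* and the receptor gene *Cxcr4*, was followed in whole livers after ischemia and reperfusion (I/R). They were taken by gene symbol and make up 6 of the 3201 genes with values. RNA-seq covered 3 livers of *Fgf18* f/f mice and 3 of *Fgf18* △HSC mice, all on a C57BL/6 background, after 1 h of ischemia of the left and middle lobes and 6 h of reperfusion. Both kinds of mice carry floxed alleles of *Fgf18*, which encodes a fibroblast growth factor, and *Fgf18* △HSC mice carry in addition Cre driven by the GFAP promoter, used to delete the gene in hepatic stellate cells (HSCs). They are called f/f and △HSC livers here. The f/f livers are labelled by their treatment alone, and their genotype was taken from the methods of the study. All 6 livers had undergone I/R, and no liver without surgery was analysed here. The age of the mice is not given in the sources used here. The deleted gene was not analysed here, and the genotypes rest on the labels and the methods.

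Values are in TPM, that is, reads per length of the joined exons of a gene, scaled to the same total in every liver. All 3201 genes passed an absolute log2 fold change of 1 and an unadjusted p of 0.05 in the authors' own comparison of the same livers. The genes described here were chosen with that contrast known, so the differences between genotypes below are descriptions with their errors, and no p is given. The livers differed in depth: the shallowest, △HSC liver 2, had 57.1% of the reads per TPM of the deepest, f/f liver 1. Of 15 hepatocyte markers only *Pck1* was listed, at 358 to 458 TPM in f/f livers and at 106 to 140 TPM in △HSC livers, so the tissue label could be checked only in part. In whole livers, fewer cells of a type cannot be told apart from less RNA per cell.

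Chemokines are small secreted proteins that guide leukocytes through G protein-coupled receptors on those cells. Inducible chemokines such as *Cxcl1*, *Cxcl2* and *Ccl4* are switched on by injury and by inflammatory signals through transcription factors such as NF-kB, and draw neutrophils, monocytes and macrophages into the tissue. Homeostatic chemokines such as *Cxcl13* and *Ccl25* are made steadily in lymphoid organs and at mucosal surfaces, where they place B cells and T cells. In the injured liver, Kupffer cells, endothelial cells and hepatocytes are all known sources of neutrophil-attracting chemokines. *Cxcr4* is the receptor for the stromal chemokine *Cxcl12* and retains leukocytes, neutrophils among them, in the bone marrow.

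The sequences upstream of the start sites differed between these genes. They are shown because NF-kB is the best known activator of inducible chemokine genes. For 5 of the 6 genes RefSeq promoters of GRCm38.p6 were at hand, from 250 bases before to 50 bases after the start site, and *Ccl4* was not among them. For *Cxcl1* and *Cxcl2* these start sites lie downstream of the gene starts given below, so positions counted from the gene starts would differ. The last 120 bases before the start site are printed 5′ to 3′ on the strand of the gene, with matches to the NF-kB consensus on either strand in capitals. *Cxcl1* lies at chr5:90891125-90891244 on the plus strand, *Cxcl2* at chr5:90903779-90903898 (plus), *Cxcl13* at chr5:95956819-95956938 (plus), the downstream start of *Ccl25* at chr8:4349468-4349587 (plus) and *Cxcr4* at chr1:128592300-128592419 (minus).
Cxcl1: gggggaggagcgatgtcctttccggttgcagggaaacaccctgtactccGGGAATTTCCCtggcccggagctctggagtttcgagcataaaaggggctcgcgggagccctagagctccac
Cxcl2: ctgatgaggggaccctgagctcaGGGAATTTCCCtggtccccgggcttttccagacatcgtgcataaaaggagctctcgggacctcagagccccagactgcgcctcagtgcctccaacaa
Cxcl13: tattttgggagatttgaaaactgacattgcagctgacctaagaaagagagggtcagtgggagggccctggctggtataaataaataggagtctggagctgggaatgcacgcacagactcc
Ccl25: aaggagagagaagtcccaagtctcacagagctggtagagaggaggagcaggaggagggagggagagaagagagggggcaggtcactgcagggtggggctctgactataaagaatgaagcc
Cxcr4: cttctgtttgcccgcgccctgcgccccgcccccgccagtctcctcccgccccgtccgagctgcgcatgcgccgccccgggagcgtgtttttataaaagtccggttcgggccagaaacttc
The letters GGGAATTTCC, taken from the consensus match of *Cxcl1*, began at position -71 from the start site of *Cxcl1* and at -97 from that of *Cxcl2*, and the capitals run over 11 bases because the consensus matched on both strands, shifted by 1 base. Of 32817 mouse promoter windows of the same length, 29 (0.0884%) held GGGAATTTCC on either strand and 1478 (4.5%) held the NF-kB consensus. The full windows of *Cxcl13*, *Cxcr4* and both starts of *Ccl25* held no match to that consensus. Presence and absence did not divide the listed chemokine genes with a window by direction. *Ccl3* and *Ccl12*, which were lower, had no match. *Ackr2*, which was higher, had 3, counting the same letters at -224 on both strands. *Ccl5*, *Cxcl5* and *Cxcr5*, like *Ccl4*, had no window. A match is a run of letters and not evidence of binding.

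The inducible ligands were lower in △HSC livers than in f/f livers, and the homeostatic ligands and *Cxcr4* were higher. *Cxcl1*, *Cxcl2* and *Ccl4* lay 4.09-fold to 6.32-fold lower by their mean TPM. Each liver was also rescaled by its median ratio over the listed genes, which lowered the log2 differences by a median of 0.88. With that shift, the differences of these 3 genes were -3.36, -3.15 and -3.67. *Cxcl13*, *Ccl25* and *Cxcr4* lay 10.5-fold, 2.22-fold and 6.46-fold higher. The fold of *Cxcl13* hung on single livers. It was 18.5 without f/f liver 3 and 7.57 without △HSC liver 2, values computed after seeing the data. The log2 difference of *Ccl25* was 0.09 (standard error 0.23) after the rescaling, and those of *Cxcl13* and *Cxcr4* were 2.31 and 1.52. The rescaling factors come from genes selected on this same contrast, whose median log2 difference was 0.88. A gene near that median must lose most of its difference. The rescaling therefore cannot show whether the higher value of *Ccl25* rested on the scaling. In each of the 6 genes the livers of one genotype lay wholly above those of the other, with 3 higher and 3 lower in △HSC livers. The same held for 96.3% of all listed genes, 62.0% higher and 34.3% lower. In a limma fit over all 3201 genes, calling a gene at an adjusted p under 0.05 and an absolute log2 difference above 1, 3 of the 6 were called lower (30.0% of all listed genes were) and 2 higher (41.6%), or 5 in either direction (71.7%). *Ccl25* was not called, since its difference of 0.995 fell just short of the limit of 1. Nothing can be read from these counts, because the table was selected on the same contrast.

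**Figure D1:**
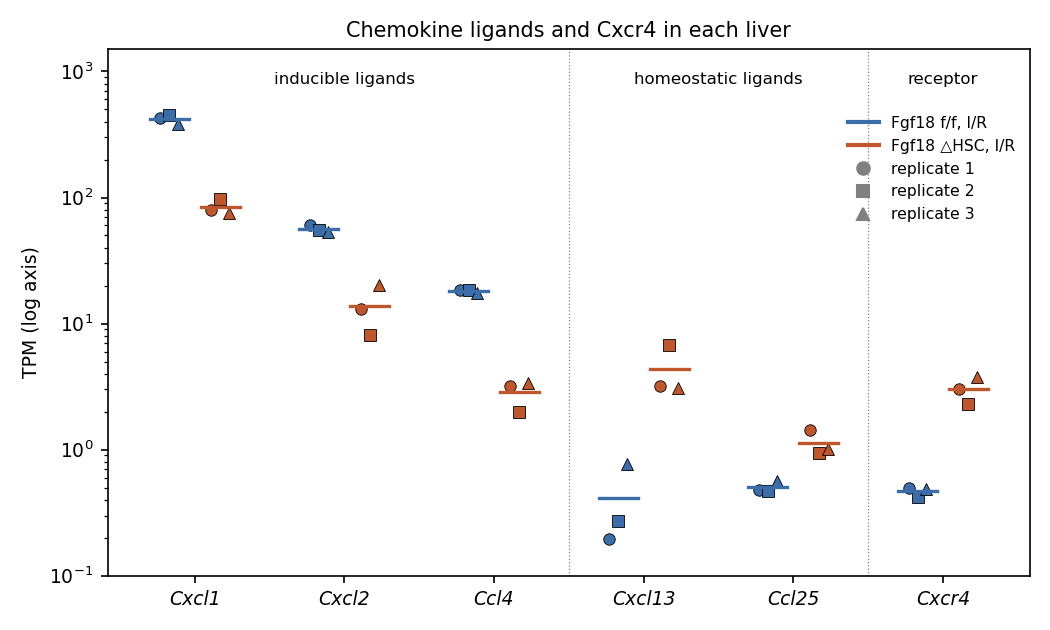
TPM of the 6 genes in each liver on a log axis, with f/f livers in blue, △HSC livers in orange, a symbol for each replicate number and a line at the mean of 3 livers. The groups did not overlap in any of the 6 genes; the spread of the △HSC livers was widest for *Cxcl2* (8.10 to 20.2 TPM) and *Cxcl13* (3.08 to 6.72 TPM).

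*Cxcl1* (chromosome 5 of GRCm38, 90891241 to 90893115), a ligand of the neutrophil receptor *Cxcr2*, had the highest level of the 6 genes in every liver. It stood at 430, 449 and 380 TPM in f/f livers and at 80.2, 96.5 and 74.7 TPM in △HSC livers. All △HSC livers thus lay far below all f/f livers, with little spread inside either group. The means were 420 ± 35.4 and 83.8 ± 11.3 TPM (SD, n = 3 livers each), and the difference on the log2(TPM + 0.1) scale was -2.33 (standard error 0.13). At least 2763 reads lay on the gene in every liver, so counting error was small.

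*Cxcl2* (chromosome 5, 90903871 to 90905938), its neighbour and paralog, signals through the same receptor. In f/f livers it was at 60.0, 55.5 and 53.6 TPM, and in △HSC livers at 12.98, 8.10 and 20.2 TPM. The groups were separate, but liver 3 of the △HSC mice had 2.498 times the level of liver 2, whereas the f/f livers differed by at most 1.12 times. The difference was -2.12 on the log2(TPM + 0.1) scale (standard error 0.29), with means of 56.4 ± 3.29 and 13.8 ± 6.11 TPM (SD, n = 3 livers each). Reads that fit both paralogs could be divided between them by the counting, and how such reads were treated is not given in the sources used here. The ratio of *Cxcl1* to *Cxcl2* TPM was 7.17, 8.08 and 7.09 in f/f livers and 6.18, 11.9 and 3.69 in △HSC livers. The mean ratio was therefore similar, at 7.45 ± 0.550 and 7.26 ± 4.21 (SD, n = 3 livers each), with a much larger spread among △HSC livers.

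*Ccl4* (chromosome 11, 83662584 to 83664683), a monocyte and T cell attractant made by activated macrophages and lymphocytes, was the most evenly expressed of the 6 genes in f/f livers. It had 18.5, 18.4 and 17.3 TPM there, a coefficient of variation of 3.45%, and 3.21, 1.98 and 3.37 TPM in △HSC livers. Its difference was -2.65 on the log2(TPM + 0.1) scale (standard error 0.20). In △HSC livers the values rested on 20 to 44 reads. *Ccl3*, which lies near *Ccl4* and is closely related to it, fell less: the ratio of *Ccl3* to *Ccl4* TPM was 0.694 to 0.893 in f/f livers and 1.23 to 1.59 in △HSC livers, without overlap.

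*Cxcl13* (chromosome 5, 95956951 to 95961068), which attracts B cells through *Cxcr5*, was barely detected in f/f livers. It was at 0.195, 0.273 and 0.772 TPM in f/f livers, on 6, 7 and 16 reads, and at 3.19, 6.72 and 3.08 TPM in △HSC livers, on 70 to 118 reads. f/f liver 3 and △HSC liver 2 each stood well above the other livers of their group. The difference of 3.18 (log2(TPM + 0.1) scale) therefore carried the largest standard error of the 6 genes, 0.45. The size also hung on the pseudocount, with 1.87 at a pseudocount of 1, and was 2.31 after the rescaling.

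*Ccl25* (chromosome 8, 4325210 to 4360020), the chemokine of the thymus and small intestine that calls T cells through *Ccr9*, differed the least of the 6 on the log2(TPM + 0.1) scale, by 0.995 (standard error 0.21). The difference was 0.49 with a pseudocount of 1 and 0.09 after the rescaling. Its level was 0.482, 0.470 and 0.567 TPM in f/f livers and 1.42, 0.932 and 1.02 TPM in △HSC livers. The groups did not overlap, and 76 to 96 reads against 106 to 219 reads lay on the gene. Its TPM depended on the gene model, because the joined exons of its 10 annotated transcripts run to 7445 bases while its principal coding transcript has 1058. If every read came from that transcript, its mean level would be 3.56 TPM in f/f livers and 7.90 TPM in △HSC livers, with the same ratio between genotypes. Its upstream exons also share 204 bases with an exon of *Elavl1* on the opposite strand. The libraries were stranded, but the strand setting of the counting is not given in the sources used here.

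*Cxcr4* (chromosome 1, 128588199 to 128592293, minus strand) was higher in △HSC livers. It had 0.496, 0.422 and 0.491 TPM in f/f livers, on 16 to 24 reads, and 3.01, 2.32 and 3.77 TPM in △HSC livers, on 64 to 135 reads. Each △HSC liver stood above 2 TPM and each f/f liver below 0.5 TPM. The difference was 2.44 on the log2(TPM + 0.1) scale (standard error 0.21). It was 1.44 with a pseudocount of 1 and 1.52 after the rescaling.

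The order of the levels differed between the genotypes. In f/f livers *Cxcl1*, *Cxcl2* and *Ccl4* stood in that order with no overlap, and *Ccl25*, *Cxcr4* and *Cxcl13* followed at means of 0.506, 0.470 and 0.414 TPM with overlapping ranges. In △HSC livers *Cxcl1* and *Cxcl2* still led, but *Cxcl13* at 4.33 ± 2.07 TPM and *Cxcr4* at 3.03 ± 0.729 TPM came before *Ccl4* at 2.86 ± 0.759 TPM (SD, n = 3 livers each). *Cxcr4* overlapped both of these neighbours in that order, and *Ccl25* at 1.12 ± 0.259 TPM lay below all of them. With reads set against the principal transcript alone, *Ccl25* would follow *Cxcl2* there, at 6.56 to 9.98 TPM, overlapping *Cxcl13*.

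The comparison of inducible with homeostatic ligands was also made within each liver, where the scaling of the libraries cancels apart from the pseudocount. The mean log2(TPM + 0.1) of *Cxcl1*, *Cxcl2* and *Ccl4* exceeded that of *Cxcl13* and *Ccl25* by 7.56, 7.39 and 6.54 in f/f livers and by 2.76, 2.16 and 3.21 in △HSC livers. The gap was thus narrower in every △HSC liver. Its difference between the group means was -4.45, and -3.41 with a pseudocount of 1. Over all listed ligands of either kind, 7 inducible and 3 homeostatic, the gap was 3.81 to 4.78 in f/f livers and 0.0656 to 1.11 in △HSC livers. The ratio of *Ccl4* to *Cxcl13* TPM fell from 94.7, 67.2 and 22.4 to 1.01, 0.295 and 1.10, so that *Cxcl13* reached the level of *Ccl4* in △HSC livers.

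Of the 65 chemokine ligand, receptor and atypical receptor genes looked for, 22 were listed, and 12 of them were called higher and 8 lower, with a median log2 difference of 1.31 against 0.88 over all listed genes. These counts too come from the contrast that selected the table, in which 41.6% of all genes were called higher and 30.0% lower, and no class was tested against another. Of 7 listed inducible ligands 6 were called lower, namely *Cxcl1*, *Cxcl2*, *Ccl4* and also *Ccl3*, *Ccl5* and *Ccl12*, and the neutrophil ligand *Cxcl5* was called higher. *Ccl12* rested on 1, 0 and 2 reads in △HSC livers, and neither it nor *Cxcl5* was called with a pseudocount of 1. *Ccl5*, which attracts T cells and monocytes, had 5.76, 5.38 and 5.03 TPM in f/f livers and 2.01, 0.614 and 1.53 TPM in △HSC livers. *Cxcl5* went the other way, from 0.461, 0.482 and 0.656 TPM to 1.35, 1.34 and 2.14 TPM. All 3 listed homeostatic ligands had higher values, *Cxcl14* at 0.368 ± 0.186 against 1.88 ± 0.245 TPM (SD, n = 3 livers each) among them. *Ccl6*, a macrophage and neutrophil product, and *Ppbp*, the platelet chemokine, were called higher as well.
All 7 listed receptors had higher values and 6 were called, with *Cxcr5* short of the limit. After the rescaling of each liver, which lowered the log2 differences by a median of 0.88, 5 of the 22 genes were called higher in place of 12. None of the 22 changed direction, but the rescaling lowered the log2 difference of each, so the 8 lower genes could not turn. *Cxcl13*, *Cxcl14*, *Cxcr1*, *Cxcr4* and *Ccr2* were still called higher. *Cxcr1* rested on only 1, 0 and 0 reads in f/f livers and 11, 1 and 10 reads in △HSC livers. Each of the 8 lower genes was still called lower, which therefore shows no stability. With a pseudocount of 1, 8 were called higher and 7 lower, and *Ccr2*, *Cx3cr1*, *Cxcr1*, *Cxcl5* and *Ccl12* lost their calls.

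**Figure D2:**
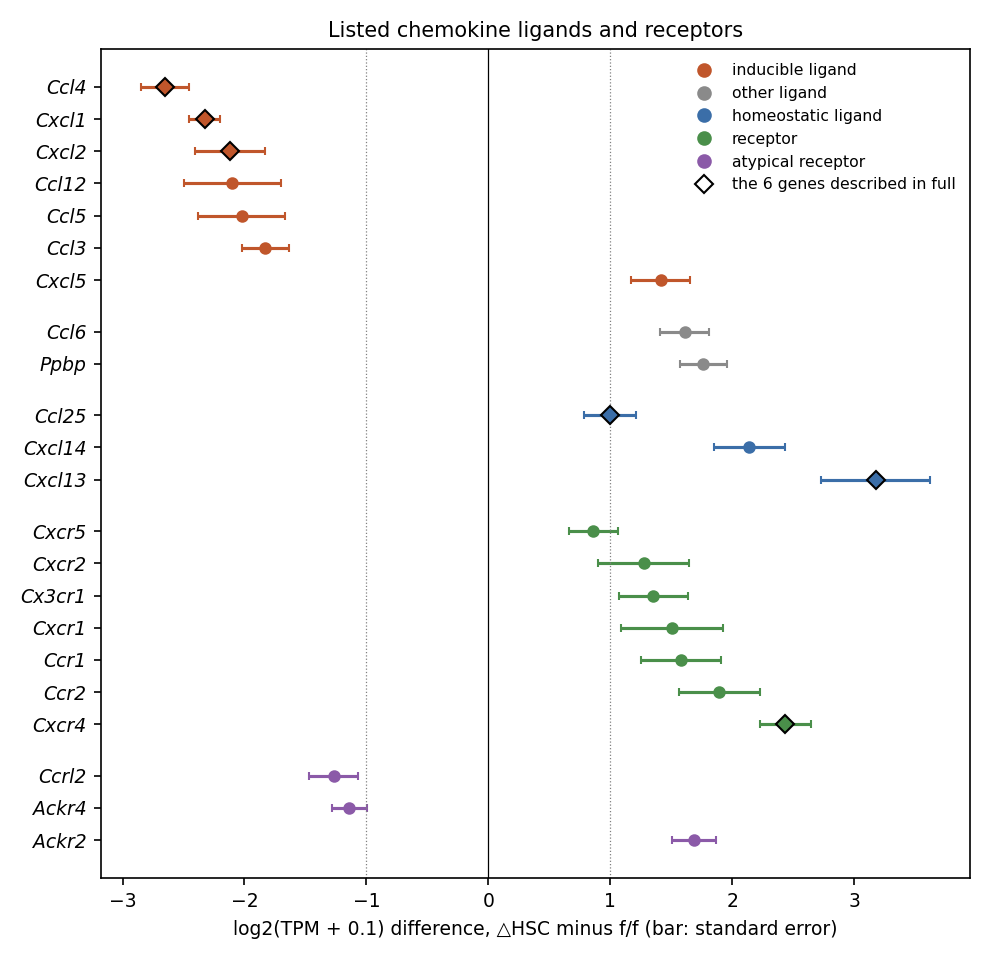
Differences between genotypes in log2(TPM + 0.1) for the 22 listed chemokine genes, as points with standard errors, grouped by class, with diamonds for the 6 genes described in full and dotted lines at the limit of 1. Inducible ligands other than *Cxcl5* lie to the left, at -1.83 to -2.65, and the 7 receptors lie to the right, at 0.86 to 2.44.

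Ligands and their receptors were then set side by side. *Cxcr2*, which neutrophils use to follow *Cxcl1* and *Cxcl2*, was at 2.30, 2.30 and 2.24 TPM in f/f livers and at 5.96, 2.98 and 10.1 TPM in △HSC livers. Receptor and ligands thus moved in opposite directions, although *Cxcr2* was not called after rescaling or without △HSC liver 3. The ratio of *Cxcl2* to *Cxcr2* TPM was 26.0, 24.2 and 23.9 in f/f livers and 2.18, 2.71 and 2.0 in △HSC livers. This ratio varied little within a genotype, although *Cxcr2* itself spread 3.39-fold among △HSC livers. For *Cxcl1* the ratio to *Cxcr2* was 187, 195 and 170 against 13.5, 32.3 and 7.39.
*Cxcr5*, the receptor of *Cxcl13* on B cells, rested on 1 to 4 reads and on 5 to 11 reads. *Ackr4*, an atypical receptor that takes up *Ccl25* without signaling, had 15.7, 15.7 and 13.9 TPM in f/f livers and 7.18, 7.62 and 5.72 TPM in △HSC livers, and was called lower. *Ackr2*, which clears inflammatory CC chemokines, stood at 1.63 ± 0.102 TPM in f/f livers and 5.56 ± 1.28 TPM in △HSC livers (SD, n = 3 each). *Ccr9*, *Ackr3* and *Cxcl12* were not analysed here.

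**Figure D3:**
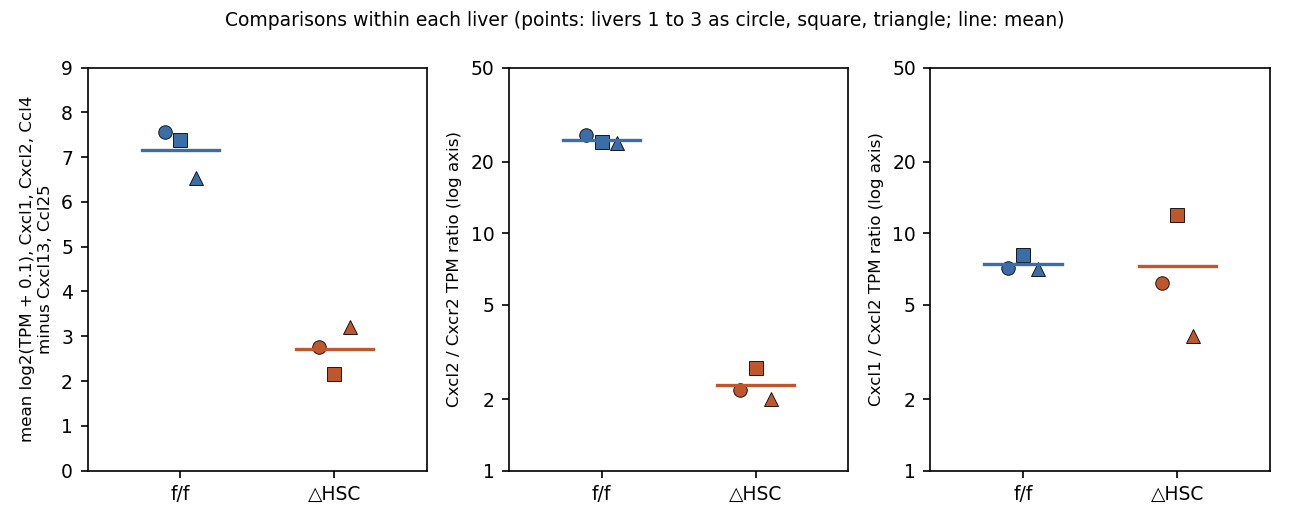
Comparisons within each liver by genotype, with livers as points and means as lines: the log2 gap between inducible and homeostatic ligands, and the ratios of *Cxcl2* to *Cxcr2* and of *Cxcl1* to *Cxcl2* TPM on log axes. The genotypes are apart in the left and middle panels and overlap in the right panel, where △HSC livers range from 3.69 to 11.9.

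Markers of leukocytes and of other cells also differed between genotypes, in both directions, and their part in the differences of these genes was not tested. The calls below stand against 41.6% called higher and 30.0% called lower over all listed genes, of which 2083 of 3201 had higher values. After the rescaling 281 genes were called higher in place of 1333, and 1115 lower in place of 961. The marker lists were not recomputed on that scale. Of 15 neutrophil markers 8 were listed, 4 called higher and 4 lower. The granule genes *Ngp*, *Camp*, *Ltf* and *Lcn2* were the lower ones, *Lcn2* at 401 to 493 TPM in f/f livers and 106 to 149 TPM in △HSC livers. *Cxcr1*, *Cxcr2*, *Csf3r* and *Mmp8* were the higher ones. The summed level of the 8 was 421 to 517 TPM against 138 to 177 TPM, most of it *Lcn2*, which hepatocytes also make. *Cxcr1* was at 0 in f/f livers 2 and 3. Of 6 monocyte markers 5 were listed and called higher, with a sum of 2.29 to 2.73 TPM against 8.04 to 22.1 TPM. Of 14 macrophage and Kupffer cell markers 5 were listed, 3 of them called higher and *Slc40a1* lower, with a sum of 17.2 to 20.6 TPM against 30.4 to 41.9 TPM.
Among △HSC livers, liver 2 was lowest and liver 3 highest for *Cxcl2*, *Ccl4* and *Cxcr4*, and also for *Cxcr2*, *Csf3r* and *Mmp8*. The other 5 listed neutrophil markers, *Ngp*, *Camp*, *Ltf*, *Lcn2* and *Cxcr1*, did not share this order. For *Cxcl1* and *Cxcl13* liver 2 was highest and liver 3 lowest.
Of the markers of cells that *Cxcl13* and *Ccl25* attract, 2 of 12 B cell markers were listed (*Ighm* and *Cxcr5*), with a sum of 3.12 to 4.74 TPM against 9.57 to 14.6 TPM, and none of 14 T cell markers. HSC markers, 10 of 16 listed, all had higher values and 8 were called, with a sum of 8.06 to 10.2 TPM against 21.7 to 32.7 TPM. The mesothelial genes *Msln* and *Upk3b* went against *Cxcl13* between genotypes and were called lower. Both were highest in f/f liver 3, where *Cxcl13* also peaked among f/f livers, with *Msln* at 0.265, 0.170 and 1.26 TPM in f/f livers and at 0.0228, 0.0310 and 0.0239 TPM in △HSC livers.
Of 6 cholangiocyte markers 5 were listed and 4 had higher values, with *Epcam* and *Spp1* called higher, *Sox9* called lower and a sum of 28.1 to 30.5 TPM in f/f livers against 50.2 to 76.8 TPM.
Blood and vessel markers were higher as well. Of 6 red cell markers 4 were listed, all globin genes and all called higher, with a sum of 70.9 to 116 TPM in f/f livers against 396 to 539 TPM. Of 10 plasma cell markers 5 were listed and called higher, with a sum of 3.48 to 5.71 TPM against 20.4 to 38.8 TPM. Of 10 sinusoidal endothelial markers 3 were listed and called higher, with a sum of 11.9 to 14.4 TPM against 26.5 to 38.8 TPM. The 2 listed NK cell markers of 9, *Gzma* and *Gzmb*, were called lower, with a sum of 2.40 to 3.58 TPM against 0.677 to 1.20 TPM.

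The mRNAs also differed in their 3′ ends, which are shown because AU-rich elements mark short-lived transcripts of many inducible genes. In the GENCODE M21 principal transcripts (GRCm38), the pentamer ATTTA occurred 7 times in the 592 bases of the 3′ UTR of *Cxcl1* and 11 times in the 734 bases of *Cxcl2*. *Ccl4* and *Cxcl13* each had 2, *Cxcr4* 1 and *Ccl25* none. The longer TATTTAT occurred 6 times in *Cxcl1*, 7 times in *Cxcl2*, 1 time in *Ccl4* and in none of the other members. Both were sought on the transcript strand, overlapping matches were counted, and TATTTAT contains ATTTA. For all genes other than the members, the longest coding transcript with a 3′ UTR was used in place of the principal one. At least 2 copies of TATTTAT were found in 10.5% of 20599 protein-coding genes, whose median 3′ UTR of 962 bases was longer than that of *Cxcl1* or *Cxcl2*. The 30 bases with the most pentamers, with ATTTA in capitals, begin at base 79 of the 3′ UTR of *Cxcl1*, 123 of *Cxcl2* and 92 of *Ccl4*.
Cxcl1: gagggtcctATTTATTTAtgtATTTATTTA
Cxcl2: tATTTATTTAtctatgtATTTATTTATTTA
Ccl4: ttcagatttcctgcccctcttcttaATTTA
Among the other inducible ligands, *Ccl3*, *Ccl12* and *Cxcl5* each had 5 pentamers and *Ccl5* had none. *Ccl3*, *Ccl12* and *Ccl5* were lower and *Cxcl5* was higher, and a relation of pentamer counts to direction was not tested.

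**Figure D4:**
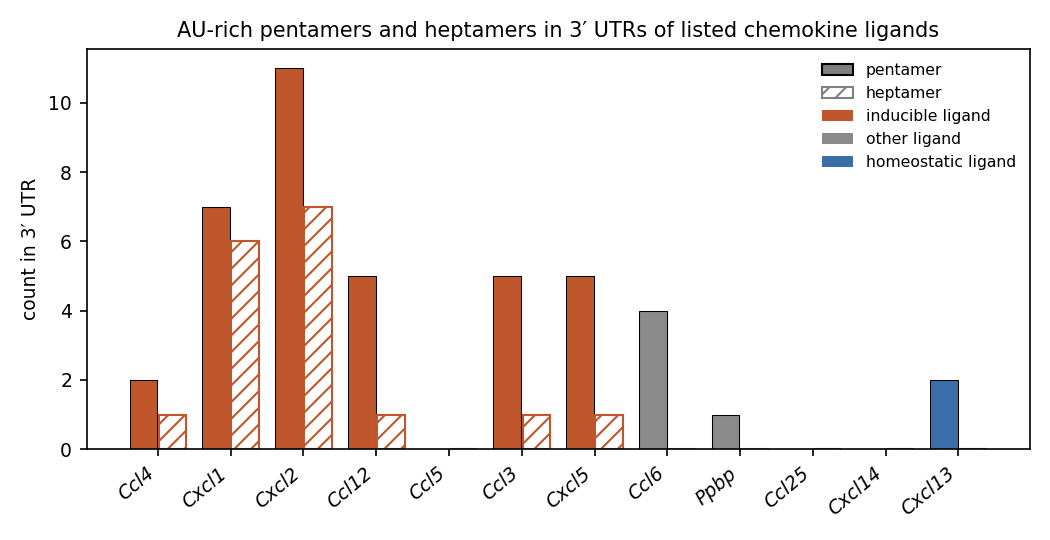
Counts of the pentamer ATTTA (filled bars) and the heptamer TATTTAT (hatched bars) in the 3′ UTR of the 12 listed chemokine ligand genes, colored by kind of ligand. Principal transcripts were used for the genes described in full, and the longest coding transcripts for the others. *Cxcl1* and *Cxcl2* hold 6 and 7 heptamers, and no other ligand shown holds more than 1.

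The genes nearest to each member in pattern were sought among 1128 protein-coding genes whose mean reached 1 TPM, by the root mean square distance of centered log2(TPM + 0.1) over the 6 livers. Because every listed gene was selected for the genotype contrast, genes with a like difference lie close, and nothing about shared control follows. *Cxcl1* lay nearest to *Zfp949* (0.127) and *Gpcpd1* (0.129). *Cxcl2* was nearest to the cytokine gene *Il6* (0.198), which had 2.98, 3.16 and 2.86 TPM in f/f livers and 0.754, 0.243 and 0.958 TPM in △HSC livers, and so had the same order of the △HSC livers as *Cxcl2*. The kinase gene *Pdk4* came second for *Cxcl2* (0.202) and for *Ccl4* (0.189), behind *Usp2* for *Ccl4* (0.125). *Ccl25* lay nearest to *Cdkn2aip* (0.0762) and *Prkab2* (0.0973), and *Cxcr4* to *Tinagl1* (0.107) and *Fosl1* (0.138). *Cxcl13* had no close neighbor, with *Olig1* at 0.396 and *Syt12* at 0.436.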

How the data were processed

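According to the methods and the submitters' processing notes, stranded mRNA libraries were trimmed with cutadapt 2.5, aligned to GRCm38 (mm10) with HISAT2 2.1.0 and counted with featureCounts 1.6.3. The authors deposited 1 table of selected genes with a TPM value per liver, made from the read counts and gene lengths. The unit is not named and was taken as TPM, because value times joined exon length (GENCODE M21) gave whole reads, within 0.02 reads, for 92.9 to 93.3% of values under 300 reads. The deposited log2 fold changes and p-values of the authors' comparison were used only to see how the table had been filtered. The genes and lists were chosen with earlier results of these data known. Log2(TPM + 0.1) was compared with limma 3.58.1 in R 4.3.3 (trend, no block, Benjamini-Hochberg over 3201 genes), after tests on simulated data. Reads were recovered for depth. Other steps used Python 3.11.15. Named were the 6 genes, listed chemokine genes and receptors, and the 2 genes nearest to each in pattern. Whether livers came from separate litters or days is not given. Library totals are unknown, so no intervals were computed. Alternatives were other pseudocounts, a filter on low values, rescaling, no trend, a replicate block, protein-coding genes, no limit on the difference, each liver left out, and limma-voom on recovered reads, added after seeing the data. Some items are not reported here.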

Additional observations from a re-analysis of the deposited data

How the results depend on the processing

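The differences of the 6 genes and of the 2 gaps kept their direction under each alternative run. The rescaling turned none of the 22 chemokine genes, but it lowered the differences of all 22, so the 8 lower ones could not turn. Marker sums, ratios and genes near in pattern were not recomputed. In all, 153 of 167 alternative values kept their side of the limit or stayed close. This tally is no measure of stability. Dropping the trend, the replicate block, protein-coding genes only and no limit could not change the log2 difference of a gene. Counts as far apart as 1995 and 1333 genes called higher were taken as close. Over all listed genes, 1333 were called higher and 961 lower. With a pseudocount of 1 these were 266 and 566, and with a mean of at least 1 TPM (fewer genes tested) 522 and 787. With rescaled livers 281 were higher and 1115 lower. The rescaling factors come from these same selected genes, most of them higher, so the turned balance follows from the rescaling itself. With no limit on the difference 2005 were higher and 1108 lower. Among the 22 chemokine genes, the rescaling left 5 called higher in place of 12, and a pseudocount of 1 left 8 higher and 7 lower. *Ccl25* fell to 0.09 after the rescaling and to 0.49 with a pseudocount of 1, not called in either, and had no value under the filter on the mean. It was called with a pseudocount of 0.01 (1.11), with no limit (0.995) and by limma-voom on recovered reads (1.15), and without f/f liver 3 (1.07) or △HSC liver 2 (1.11) or 3 (1.05). With a pseudocount of 1 the difference of the gap between inducible and homeostatic ligands was -3.41 for the members and -2.52 for all listed ligands, in place of -4.45 and -3.77. Leaving out each liver in turn gave -2.43 to -2.25 for *Cxcl1*, -2.44 to -1.79 for *Cxcl2*, -2.79 to -2.42 for *Ccl4*, 2.82 to 3.64 for *Cxcl13*, 0.83 to 1.11 for *Ccl25*, 2.27 to 2.61 for *Cxcr4*, 1204 to 1377 higher and 907 to 975 lower genes in all, 12 to 13 higher and 8 lower chemokine genes, and -4.77 to -4.18 and -4.08 to -3.47 for the 2 gaps. Without △HSC liver 3, *Cxcr2* was no longer called. Same-numbered livers share only a number: their deviations from the group means correlated at 0.0574, 0.00597 and 0.0307 across genes, and the replicate block, with 2300 genes called in place of 2294, changed no call among the 22. The cause of these dependences was not tested. Depth limits the low genes most, with 6 to 16 reads on *Cxcl13* and 16 to 24 on *Cxcr4* in f/f livers.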
